A study of Mus musculus with 16 samples.

Results

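Mechanical loading changed RNA levels in mouse cortical bone, and the size of that change was compared between 2 genotypes. All 16 libraries of the study entered the comparison, a loaded and a non-loaded tibia from each of 8 mice. For each mouse the log2 level in the loaded tibia minus that in the non-loaded tibia was taken, and the 4 differences of NT3 mice were set against the 4 of Ctrl mice. A negative value therefore means a smaller rise, or a larger fall, with loading in NT3.

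The animals were male mice aged 16 weeks, labelled Ctrl or NT3-Cre+ (NT3 below), from a study of NF-kB inducing kinase (NIK, gene Map3k14) switched on in the osteoblast lineage. Which allele NT3 names, which promoter drives Cre and what Ctrl mice carry are details not given in the sources used here. In both genotypes the right tibia received axial compression on 9 days, at 1200 cycles per day and 4 Hz, and the left tibia received none. Ctrl tibiae were compressed with 8.7 N and NT3 tibiae with 10.0 N, set to give -2000 microstrain in each, so genotype and force cannot be told apart in this contrast. Animal numbers in the titles also divided the genotypes unevenly. Tibiae were collected 4 hours after the last bout, and the marrow was spun out before RNA extraction. Limbs of a mouse were paired by the study's design text and share that animal, while the 4 mice of a genotype are separate animals.

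Bone adapts to strain because osteocytes embedded in the matrix sense it and osteoblasts on the surface lay down new matrix. That matrix is mainly type I collagen, which is modified in the endoplasmic reticulum, exported, assembled with minor fibrillar collagens and then mineralized with help from acidic proteins such as bone sialoprotein. NIK acts in the non-canonical NF-kB pathway, where it leads to processing of the p100 protein encoded by Nfkb2 and to nuclear complexes with RelB.

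Libraries held 758394 to 1064391 counted fragments, and ribosomal RNA rows took 5.81% to 16.7% of them. The group means of that share were 13.3% in non-loaded and 14.0% in loaded Ctrl, and 10.2% and 12.9% in NT3. A row of the count tables carries a gene symbol, and 1093 of 1242 rows averaging at least 100 fragments (88.0%) lay over exons of an oppositely transcribed gene, against 15.3% of other rows. The strand setting of the counting is not given, so such a row and the gene opposite it are both named and neither is preferred. For the same reason a row under a gene's own name, also one with no gene opposite, may not give the level of that gene's mRNA. Per library the Phospho1 row held 46 to 102 fragments, the Abi3 row opposite it 455 to 4198, and the Col1a1 row 34 to 430. Which strand was counted was not tested. Of osteoblast markers, Runx2, Ibsp, Phospho1 and Ifitm5 passed the count filter under their own names, whereas Bglap held 0 to 4 fragments per library and Sp7 0 to 9. Bone of the loaded and non-loaded limb is a mixture of cells, so fewer cells of a type and less RNA per cell cannot be told apart in any value below.

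In every row called for a difference, the loading response was smaller in NT3 than in Ctrl. Of these rows, Ibsp and Col1a2 had no gene opposite. Abi3 lies opposite Phospho1, Zfp652 and Gngt2, Prmt7 opposite Smpd3 and Gm26786, and Nt5c3b opposite Fkbp10. The 2810430I11Rik and Gm13372 rows lie opposite Col5a1, Gm20444 opposite Mfrp and C1qtnf5, Gm26840 opposite Vwa1, and Chn1os3 opposite Chn1. Of 7192 rows tested, 10 (0.139%) differed in their loading response at a Benjamini-Hochberg adjusted p below 0.05 in edgeR's quasi-likelihood test with mouse as a block. All 10 had the smaller response in NT3, by 0.88 to 1.63 on the log2 scale, and 0 rows had a larger one. At an unadjusted p below 0.05 there were 472 rows (6.56%), close to evenly split, with 249 rows lower (3.46%) and 223 higher (3.1%), and the median difference over all rows was 0.011. In each of the 10 rows the 4 NT3 differences lay below the 4 Ctrl differences. This order occurred in 2.04% of all rows, and the reverse order in 1.82%. Such separation gives the smallest p that the exact two-sided permutation test over 70 arrangements allows, 0.0286. The rows were chosen by a test of the same differences, so this p is not corrected for that choice and is no separate support. All 10 were called as raised by loading in Ctrl, and 6 also in NT3.

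**Figure D1:**
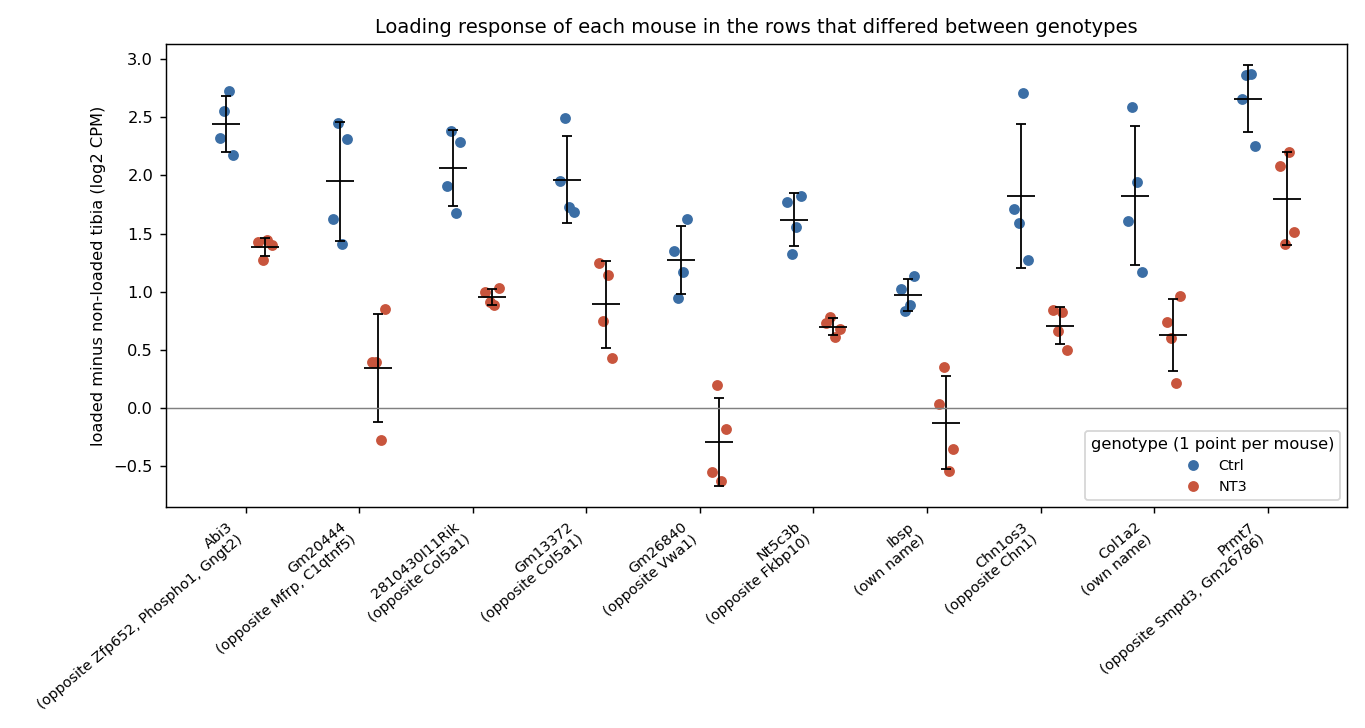
Each point is the loaded minus non-loaded log2 CPM of 1 mouse, for the 10 rows with a called difference, and bars give mean and SD of 4 mice per genotype. In every row the 4 Ctrl points lie above the 4 NT3 points, and the Ibsp and Gm26840 rows are near or below 0 in NT3.

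Ibsp encodes bone sialoprotein, an acidic protein of mineralizing matrix, and its row (chr5:104299171-104311469, plus strand, GRCm38) had no gene opposite. In Ctrl mice 1 to 4 it stood at 136, 68.9, 129 and 84.5 TMM-scaled CPM, that is counts per 1e+06 fragments, in the non-loaded tibia and at 280.2, 125, 241 and 189 CPM in the loaded tibia. In NT3 mice 1 to 4 the non-loaded values were 126, 121, 161 and 102 CPM and the loaded values 129, 155, 111 and 79.9 CPM. Every Ctrl mouse was higher in its loaded limb, whereas NT3 mice 1 and 2 were higher and mice 3 and 4 lower, and the within-mouse differences of the genotypes did not overlap. The fitted loading response was 0.99 ± 0.16 (log2, SE) in Ctrl and -0.12 ± 0.16 in NT3, a difference of -1.10 ± 0.22 with an edgeR adjusted p of 0.0115. Without NT3 mouse 3 that difference was -0.96 with an adjusted p of 0.169, and the call was lost.

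Col1a2, which encodes the alpha-2 chain of type I collagen (chr6:4504814-4541544, plus strand), also had no gene opposite. Ctrl mice held 80.0, 23.4, 59.3 and 97.7 CPM in non-loaded and 248, 152, 234 and 223 CPM in loaded tibiae. NT3 mice held 91.5, 116, 71.0 and 62.9 CPM in non-loaded and 154, 177, 82.9 and 125 CPM in loaded tibiae. On the log2 scale the within-mouse differences were 1.61, 2.59, 1.94 and 1.17 in Ctrl and 0.74, 0.60, 0.22 and 0.96 in NT3. All 8 mice were higher in the loaded limb, and the smallest Ctrl difference exceeded the largest in NT3. The fitted responses of 1.79 and 0.65 correspond to a 3.45-fold rise in Ctrl and a 1.57-fold value in NT3, which differed by -1.13 ± 0.25 (edgeR adjusted p = 0.0459). This call was near the threshold: it was lost without any of Ctrl mice 1, 2 or 3 (adjusted p 0.0537, 0.323 and 0.245) or NT3 mice 1, 2 or 3 (0.0836, 0.19 and 0.226). The partner chain Col1a1 had responses of 2.06 in Ctrl and 1.19 in NT3, a difference of -0.87 ± 0.24 that was not called (adjusted p = 0.167) and whose within-mouse values overlapped.

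The most abundant row with a called difference was Abi3 (chr11:95830074-95842476, minus strand), which averaged 1802 fragments per library. Abi3 encodes an adaptor of the actin machinery, and its row lies opposite Phospho1, the phosphatase that releases phosphate for mineral inside matrix vesicles, and opposite Zfp652 and Gngt2. In Ctrl the row went from 839.7, 531, 746 and 1050.1 CPM in non-loaded to 4211, 3127, 4930.4 and 4742 CPM in loaded tibiae. In NT3 it went from 1089, 1416, 645 and 713 CPM to 2926, 3426, 1760.0 and 1889 CPM. The NT3 changes were tightly grouped at 1.42, 1.27, 1.44 and 1.4 on the log2 scale, below all Ctrl changes of 2.32, 2.55, 2.72 and 2.17. Loading raised the row 5.44-fold in Ctrl and 2.62-fold in NT3, and the difference of -1.06 ± 0.16 had an edgeR adjusted p of 1.61e-04. The row named Phospho1 held only 71.4 fragments on average and did not share this pattern, with responses of 0.13 and 0.19 (difference 0.064, 95% interval -0.48 to 0.60).

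The Prmt7 row showed the same order. Prmt7, an arginine methyltransferase gene (chr8:106210936-106252794, plus strand), lies opposite Smpd3, the neutral sphingomyelinase needed for normal bone mineralization, and opposite Gm26786. Its row stood at 116, 68.9, 91.7 and 134 CPM in non-loaded and 745, 515, 683 and 647 CPM in loaded Ctrl tibiae. The NT3 values were 167, 232, 52.9 and 115 CPM and 710.0, 620.4, 251 and 332 CPM. Loading raised the row in both genotypes, 6.37-fold in Ctrl and 3.46-fold in NT3, and NT3 mice 2 and 4 changed least. The difference of -0.88 ± 0.20 was called at an edgeR adjusted p of 0.0459, but not when Ctrl mouse 1, 2 or 3 was left out (0.0787, 0.292 and 0.289) or NT3 mouse 2 or 4 (0.291 and 0.0945). The row named Smpd3, at 27.4 fragments, had responses of 0.19 and 0.14, and its difference had a 95% interval of -0.88 to 0.78.

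Nt5c3b (chr11:100422321-100441808, minus strand) is a cytosolic nucleotidase gene, and its row lies opposite Fkbp10, which encodes a collagen chaperone of the endoplasmic reticulum. Non-loaded Ctrl tibiae were close together at 274, 280.3, 289 and 274 CPM, and their loaded partners held 939.7, 707, 857 and 972 CPM. NT3 tibiae held 360.4, 343, 271 and 249 CPM without and 599, 592, 415 and 399.6 CPM with loading. Each loaded NT3 value lay below each loaded Ctrl value, while the non-loaded values of the genotypes overlapped. The response was 1.63 ± 0.12 in Ctrl and 0.71 ± 0.12 in NT3, and both were called as higher. The difference of -0.92 ± 0.17 had an edgeR adjusted p of 0.00213, and leaving out any single mouse kept it called. The row named Fkbp10 held 0 to 11 fragments and was not tested.

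Type V collagen, whose alpha-1 chain is encoded by Col5a1, helps start type I fibrils, and 2 called rows lie opposite that gene on chromosome 2. The 2810430I11Rik row (chr2:27882925-27887052, minus strand) stood at 161, 72.4, 164 and 133 CPM in non-loaded and 612, 386, 529.8 and 657 CPM in loaded Ctrl tibiae. Its NT3 values were 278, 287, 148 and 178 CPM and 556, 542, 276 and 366 CPM. The loaded levels of the genotypes overlapped, but NT3 had the higher mean without loading, and its within-mouse changes of 1.00, 0.91, 0.89 and 1.03 stayed below those of 1.91, 2.38, 1.68 and 2.28 in Ctrl. The difference was -1.10 ± 0.18 (edgeR adjusted p = 6.07e-04). The Gm13372 row (chr2:28025417-28030437, minus strand) gave within-mouse changes of 1.95, 2.49, 1.72 and 1.68 in Ctrl and 1.25, 0.75, 1.14 and 0.44 in NT3, from mean levels of 227 ± 67.3 and 343 ± 106 CPM (SD, n = 4). Its difference was -1.07 ± 0.19 (edgeR adjusted p = 0.00213). Both rows share the Col5a1 locus and are not independent of each other. The row named Col5a1, at 37.3 fragments, had a difference of -1.02 ± 0.37 that was not called (unadjusted p = 0.00818, adjusted p = 0.529).

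A further 3 called rows lie opposite genes outside the collagen and mineral groups. Gm26840 (chr4:155769969-155776161, plus strand) is opposite Vwa1, which encodes a von Willebrand factor A domain protein of the extracellular matrix. It held 45.9, 42.0, 38.8 and 29.5 CPM in non-loaded and 120.4, 83.0, 90.3 and 96.0 CPM in loaded Ctrl tibiae. In NT3 it held 100.2, 51.9, 68.4 and 48 CPM and 67.9, 60.1, 43.4 and 42.1 CPM, so that all Ctrl mice but only NT3 mouse 2 were higher after loading. The responses of 1.32 and -0.31 differed by -1.63 ± 0.29 (edgeR adjusted p = 0.00213), the largest of the 10 differences. The NT3 response itself was not called (adjusted p = 0.821).

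Gm20444 (chr9:44107301-44108879, minus strand) lies opposite Mfrp, which encodes a membrane protein related to the frizzled receptors, and the C1q/TNF family gene C1qtnf5. Its Ctrl values were 111, 61.9, 110.0 and 63.1 CPM in non-loaded and 346, 348, 296 and 322 CPM in loaded tibiae. Its NT3 values were 182, 94.9, 182 and 89.6 CPM and 240.3, 126, 150.1 and 164 CPM. Loaded Ctrl tibiae were all above loaded NT3 tibiae, and NT3 mouse 3 was lower in the loaded limb. The difference was -1.61 ± 0.24 (edgeR adjusted p = 1.61e-04). Chn1os3 (chr2:73596526-73616012, plus strand) lies opposite Chn1, which encodes a GTPase-activating protein for Rac. Its within-mouse changes were 1.71, 1.59, 2.71 and 1.27 in Ctrl and 0.84, 0.66, 0.83 and 0.50 in NT3, from mean levels of 86.5 ± 33.5 and 128 ± 44 CPM. Ctrl mouse 3 had the largest change, and the difference of -1.11 ± 0.23 (edgeR adjusted p = 0.0178) lost its call without that mouse (-0.82, 0.304) or without NT3 mouse 2 (-1.08, 0.132).

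**Figure D2:**
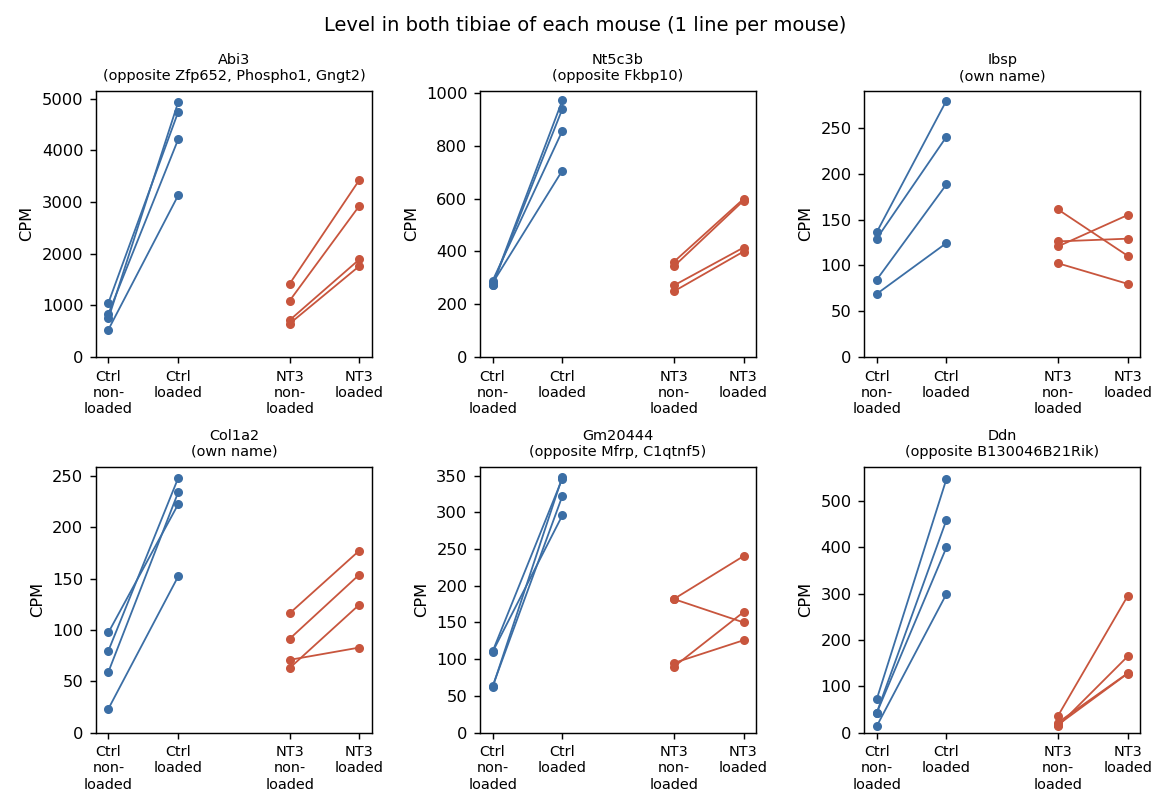
Each line joins the non-loaded and loaded tibia of 1 mouse, in CPM, with 4 Ctrl mice left and 4 NT3 mice right in each panel. Slopes are steeper in Ctrl for the Abi3, Nt5c3b, Ibsp, Col1a2 and Gm20444 rows. The Ddn row, whose difference was not called, rises in all 8 mice.

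The non-loaded means ran in the opposite order to the loaded means. In all 10 rows the mean of non-loaded NT3 tibiae was above that of non-loaded Ctrl tibiae. The mean of loaded NT3 tibiae was below that of loaded Ctrl tibiae. The contrast that chose these rows is built from the same levels, so this order describes them and is no separate support. The genotypes were not tested within either limb here. For Ibsp the non-loaded means were 105 ± 33.2 CPM in Ctrl and 128 ± 24.6 CPM in NT3, and the loaded means 209 ± 67.4 and 119 ± 31.7 CPM (SD, n = 4). For the Abi3 row the loaded means were 4252 ± 809.9 CPM in Ctrl and 2500.3 ± 809 CPM in NT3.

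The windows of 250 bases upstream of the RefSeq start (GRCm38.p6) are shown for 4 genes of bone matrix and mineral that lie at called rows, Ibsp and Col1a2 by name and Phospho1 and Col5a1 on the opposite strand. All 4 lie on the plus strand and run 5′ to 3′. Capitals mark matches to the CCAAT box (CCAAT or its complement ATTGG), to TATAAA or its complement TTTATA, and to the AP-1 site TGANTCA.
Ibsp, chr5:104299037-104299286: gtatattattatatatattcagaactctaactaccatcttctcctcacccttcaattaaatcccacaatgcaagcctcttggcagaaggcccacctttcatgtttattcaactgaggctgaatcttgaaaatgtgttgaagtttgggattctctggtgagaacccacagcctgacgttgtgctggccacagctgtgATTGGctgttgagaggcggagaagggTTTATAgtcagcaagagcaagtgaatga
Col1a2, chr6:4505368-4505617: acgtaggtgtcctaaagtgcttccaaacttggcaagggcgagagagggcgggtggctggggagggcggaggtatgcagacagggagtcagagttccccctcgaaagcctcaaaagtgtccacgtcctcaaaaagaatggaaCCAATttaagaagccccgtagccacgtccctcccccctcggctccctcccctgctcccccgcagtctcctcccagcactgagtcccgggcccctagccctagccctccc
Phospho1, chr11:95824250-95824499: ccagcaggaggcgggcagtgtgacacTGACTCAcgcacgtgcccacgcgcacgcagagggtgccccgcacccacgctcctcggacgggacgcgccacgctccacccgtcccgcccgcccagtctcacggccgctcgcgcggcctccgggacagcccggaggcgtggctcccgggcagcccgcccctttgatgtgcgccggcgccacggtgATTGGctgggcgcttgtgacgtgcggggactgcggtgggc
Col5a1, chr2:27886175-27886424: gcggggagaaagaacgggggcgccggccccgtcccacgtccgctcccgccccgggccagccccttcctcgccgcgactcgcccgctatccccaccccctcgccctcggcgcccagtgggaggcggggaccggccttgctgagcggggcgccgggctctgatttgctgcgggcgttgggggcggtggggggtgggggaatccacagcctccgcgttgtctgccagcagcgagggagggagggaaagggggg
A CCAAT box started 54 bases before the start in Ibsp, 109 in Col1a2 and 40 in Phospho1, and the Col5a1 window held no match to any motif searched. Among 32851 promoter windows of this length 33.8% held CCAAT on either strand, 12.4% TATAAA and 6.75% TGANTCA. The Ibsp window also held the TATAAA complement starting 28 bases before the start, and the Phospho1 window an AP-1 match at 224 bases. The RUNX core TGTGGT, found in 14.0% of windows, matched none of these 4. No match to the kappa B consensus, which 3.90% of windows held, was found in the windows of 8 of the 13 genes at called rows that the table lists. These matches describe letters in a window and were not tested for binding. Positions hold for the RefSeq start only. The Col1a2 window lies inside the span given above for its row, and the Ibsp window overlaps the span of its row.

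The rows next to the threshold were 8030451A03Rik, opposite the matrix glycoprotein gene Tnc, and Gm38391, opposite Plod2, which encodes a lysyl hydroxylase for collagen cross-links. They differed by -0.68 ± 0.16 and -0.73 ± 0.17 and were not called, each with an edgeR adjusted p of 0.0563. Within-mouse changes of the 8030451A03Rik row were 0.16, 0.42, 0.37 and 0.80 in Ctrl and -0.30, -0.14, -0.34 and -0.20 in NT3, so that its direction differed between the genotypes in all 8 mice. The Gm38391 row, named here because it stood nearest the threshold, gave within-mouse values of 1.15, 1.06, 1.32 and 1.05 in Ctrl and 0.43, 0.12, 0.51 and 0.65 in NT3, with every mouse higher after loading.

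Most of the rows raised by loading had the smaller response in NT3. Load-responsive rows were taken from the average of the Ctrl and NT3 responses, with equal weight. They were therefore not selected on the Ctrl response alone. Of 7192 rows, 316 (4.39%) were called on average, 233 (3.24%) higher and 83 (1.15%) lower. Among the 233 higher rows, 202 (86.7%) had the smaller response in NT3, beside 49.1% of all rows tested with a difference below 0. Their median response was 1.02 in Ctrl and 0.52 in NT3, and the median difference was -0.45, with quartiles of -0.73 and -0.20. In 47 of them (20.2%) all NT3 mice lay below all Ctrl mice, beside 2.04% of all rows, and in 0 of them above. Each response tested on its own gave 293 called rows in Ctrl (4.07%) and 30 in NT3 (0.417%). Of the Ctrl calls 221 were higher (3.07%) and 72 lower (1%), and of the NT3 calls 24 were higher (0.334%) and 6 lower (0.0834%). Of the 233 rows, 182 were called in Ctrl and 24 in NT3. Those counts are not a test of the difference, which called 10 rows. All 10 are among the 233 rows, which were chosen from the same libraries. Shares and medians over the 233 rows, also those by mouse, describe them and are no separate support.

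By mouse, the median change over the 233 rows was 1.03, 0.92, 0.84 and 0.90 in Ctrl mice 1 to 4 and 0.60, 0.41, 0.36 and 0.55 in NT3 mice 1 to 4. The genotypes did not overlap. The difference was present in each class of response: it had a median of -0.30 in the 68 rows with an average rise up to 0.5, -0.47 in 80 rows up to 1, -0.69 in 53 rows up to 1.5, -0.87 in 19 rows up to 2 and -0.60 in 13 rows above 2. The 83 rows that were lower after loading differed less, with medians of -0.51 in Ctrl and -0.39 in NT3. Of these, 52 (62.7%) had the smaller fall in NT3, and the median difference of 0.18 changed sign to -0.0013 without NT3 mouse 2. With a term for loading by animal number and rows chosen anew, the median difference was -0.29 over raised and -0.15 over lowered rows.

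**Figure D3:**
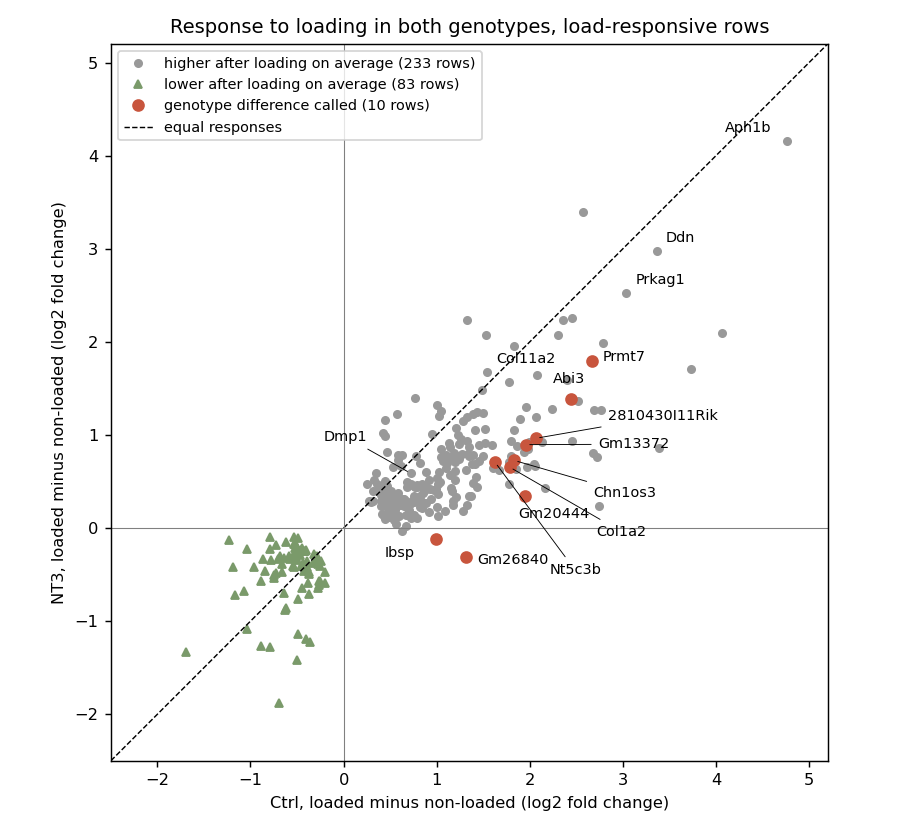
Each point is 1 of 316 load-responsive rows, with its log2 loading response in Ctrl on the horizontal and in NT3 on the vertical axis. Most of the 233 higher rows lie below the dashed line of equal responses, among them all 10 rows with a called difference. The Col11a2 point lies above the line, and the Ddn, Prkag1 and Aph1b points lie below it with differences of -0.39, -0.51 and -0.60.

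Rows with large responses included some whose difference between the genotypes was not called. The largest responses of all were in Aph1b, a gamma-secretase subunit gene, at 4.76 in Ctrl and 4.16 in NT3 with a difference of -0.60 (95% interval -2.15 to 0.95). Ddn and Prkag1, both opposite B130046B21Rik, rose by 3.36 and 3.04 in Ctrl and by 2.98 and 2.53 in NT3. The Ddn difference was -0.39 with an interval of -0.96 to 0.18, and its changes of 2.44, 2.95, 3.34 and 2.74 in NT3 overlapped those of 4.2, 2.88, 3.34 and 3.16 in Ctrl. Of these rows only Col11a2, a collagen gene, had the larger response in NT3, with responses of 1.54 in Ctrl and 1.68 in NT3 and an uncalled difference of 0.14 (-0.56 to 0.85). Dmp1, an osteocyte matrix protein gene, had responses of 0.72 and 0.59 and an uncalled difference of -0.13 (-0.62 to 0.36). The Aph1b and Ddn intervals contain differences of the size of some called rows, whereas those of Col11a2 and Dmp1 do not reach the smallest called difference of -0.88. Aph1b and Col11a2 were chosen after their values had been seen.

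Fibrillar collagens had the lowest median difference of the bone matrix lists by row name. Of 11 members 9 were tested, 1 (Col1a2) was called, 7 lay below 0, and the median was -0.87 beside 0.011 over all rows. Their median response was 1.54 in Ctrl and 0.72 in NT3. Over all rows 0.139% were called and 49.1% lay below 0, and these are the shares to set each list below against. Col11a1, a chain that associates with type V and type II fibrils, gave within-mouse values of 1.65, 1.97, 1.60 and 2.15 in Ctrl and 1.48, -0.52, 1.30 and 0.97 in NT3, without overlap but without a call (difference -1.13 ± 0.47, edgeR adjusted p = 0.659). Col3a1 and Col5a2, named after their values were seen, had differences of -0.73 and -0.72, and in both the mice overlapped. Outside the fibrillar class, 10 of 15 tested collagens lay below 0 with a median of -0.16 and 0 were called. The largest was Col6a3 of the microfibrillar type VI collagen, at 2.03 in Ctrl and -0.033 in NT3, from only 8.88 fragments per library (edgeR adjusted p = 0.574).

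Rows opposite collagen-modifying enzymes and chaperones included 7 tested, of which 6 lay below 0 with a median of -0.31 and 1, Nt5c3b, was called. The same list by row name held 13 tested rows, 0 called and a median of -0.041, at mostly low counts. Non-collagenous matrix proteins split the same way: the 9 rows opposite them had a median of -0.47 with 8 below 0, and the 16 under their own names 0.042 with 7 below 0, with 0 called in each. Sparc, the collagen-binding glycoprotein osteonectin, gave within-mouse values of 1.62, 1.36, 1.97 and 1.88 in Ctrl and 0.46, 0.93, 1.18 and -0.22 in NT3. Those groups did not overlap, and the difference of -1.21 ± 0.34 was not called (edgeR adjusted p = 0.221). The 2700060E02Rik row, opposite the basement membrane gene Nid2, gave 1.52, 1.29, 1.23 and 1.11 and 0.50, -0.025, -0.14 and 0.57, a difference of -1.09 (adjusted p = 0.136). Of 4 tested rows opposite secretory pathway genes, 3 lay below 0. Gm44170, opposite the translocon gene Sec61a1, had a difference of -0.62 and Gm17529, opposite the vesicle coat gene Sec23a, one of -0.57, and 0 were called. By row name 6 secretory pathway rows were tested, 3 lay below 0, the median was 0.089 and 0 were called.

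Osteoblast and mineralization genes lay on both sides of 0, as did all rows, of which 49.1% lay below. By row name 19 were tested, 1 (Ibsp) was called, 8 lay below 0 and the median was 0.061, with a sign that turned when Ctrl mouse 3, NT3 mouse 2 or NT3 mouse 4 was left out (-0.028, -0.0029 and -0.011). By the gene opposite 12 were tested, 2 (Abi3 and Prmt7) were called, 7 lay below 0 and the median was -0.18, or -0.27 without NT3 mouse 4. The 1700051A21Rik row, opposite the citrate transporter gene Slc13a5, had responses of 2.24 and 1.27 and an uncalled difference of -0.97 ± 0.30 (adjusted p = 0.328). Among osteocyte genes by row name 8 of 9 tested lay below 0, with a median of -0.51 and 0 called. Without Ctrl mouse 2 or NT3 mouse 1 that median was -0.24 or -0.22. Mepe, which encodes a phosphoglycoprotein of osteocytes, gave within-mouse values of 0.079, -0.18, -0.23 and 0.20 in Ctrl and -1.35, 0.058, -0.97 and -0.56 in NT3. Sost, which encodes the Wnt inhibitor sclerostin, gave within-mouse values of -0.22, 0.52, -0.40 and -1.53 in Ctrl and -1.86, -1.14, -1.12 and 0.88 in NT3, with wide overlap and a difference of -0.51 ± 0.53 (adjusted p = 0.947). Pdgfa, a growth factor gene opposite 6330403L08Rik, gave within-mouse values of 0.30, 0.64, 0.63 and 0.36 and -0.26, -0.15, 0.19 and -0.43, which did not overlap (difference -0.65, adjusted p = 0.610).

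In growth factor pathways, 7 of 10 tested rows opposite TGF-beta and BMP genes lay below 0, beside 49.1% of all rows. Their median was -0.51, or -0.32 without Ctrl mouse 4, and 0 were called. The Gm37804 row, opposite the ligand gene Tgfb3, gave within-mouse values of 1.03, 1.38, 0.62 and 0.99 in Ctrl and 0.48, -0.014, -0.046 and 0.015 in NT3 (difference -0.89 ± 0.22, edgeR adjusted p = 0.0952). The Gm26903 row, opposite the ligand gene Bmp5 and Hmgcll1, gave within-mouse values of 0.42, 0.93, 0.57 and 0.74 and 0.094, 0.049, -0.083 and 0.011 (difference -0.65, adjusted p = 0.144). In both rows no NT3 mouse reached the lowest Ctrl mouse. By row name the same list had a median of 0.086 over 11 rows. Of 12 tested rows opposite Wnt pathway genes 8 lay below 0 with a median of -0.26, and 0 were called. That median was -0.17 without Ctrl mouse 1, NT3 mouse 1 or NT3 mouse 2. By row name 13 Wnt pathway rows were tested, 6 lay below 0, the median was 0.043 and 0 were called. The Ulk4 row, opposite the beta-catenin gene Ctnnb1, differed by -0.42 ± 0.16 (adjusted p = 0.582).

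**Figure D4:**
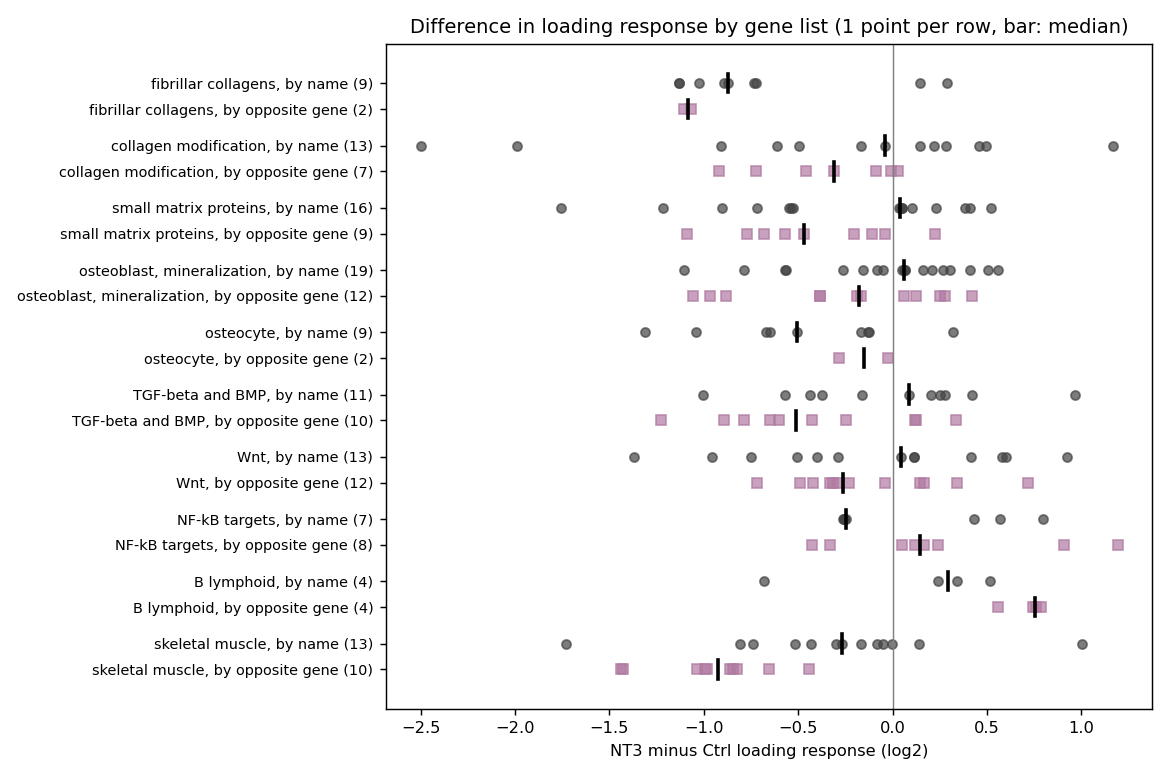
Each point is the NT3 minus Ctrl loading response (log2) of 1 tested row, grouped by gene list and by whether the row carries the listed gene's name (circles) or lies opposite it (squares), with the number of rows in parentheses. Black bars are medians: -0.87 for fibrillar collagens by name, 0.75 for rows opposite B lymphoid genes and -0.92 for rows opposite skeletal muscle genes.

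No row had a called larger response in NT3, and the smallest adjusted p in that direction was 0.167, in Kcnh7. Kcnh7 encodes a potassium channel subunit and its row lies opposite the calcium-binding protein gene Gca. It gave within-mouse values of -0.95, -1.0, -0.68 and -0.50 in Ctrl and 0.13, -0.34, 0.26 and -0.42 in NT3. The other 4 rows with the smallest p upward were F830208F22Rik (opposite Pstpip2), Tesk1 (opposite Cd72), Gm19434 and Gm26847 (opposite Mip and Timeless), with differences of 0.97, 0.76, 1.62 and 1.48. In F830208F22Rik, Tesk1 and Gm26847 Ctrl mice were all lower after loading, and NT3 mice were mostly near 0 or higher.

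Rows opposite B lymphoid genes had the highest median of the lists with at least 4 tested rows opposite their genes. All 4 tested rows had an unadjusted edgeR p below 0.05 for a higher response in NT3, beside 3.1% of all rows. Their median was 0.75, and 0 were called. The list was chosen with earlier results of these data known. Tesk1, opposite the B cell surface gene Cd72, gave within-mouse values of -0.18, -0.90, -0.97 and -0.53 in Ctrl and -0.11, 0.037, 0.18 and 0.37 in NT3. Gm29439, opposite the B cell receptor regulator gene Cd22, gave within-mouse values of -0.95, -0.10, -0.32 and -0.91 and -0.21, 0.12, -0.19 and 0.11. The remaining 2 rows, 5730488B01Rik and Gm12462, lie opposite the B lineage factor gene Pax5 and share that locus, with differences of 0.79 and 0.75. The summed level of the rows opposite B lymphoid genes ran from 204 to 385 CPM in non-loaded and 166 to 220.2 CPM in loaded Ctrl tibiae, and from 446 to 715 and 424 to 690 CPM in NT3. NT3 was thus higher in both limbs without overlap. By row name the 4 tested members had a median of 0.29, and the Cd72 row itself went the other way, at 0.61 in Ctrl and -0.064 in NT3.

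Few genes of the pathway named in the study's title could be tested for the contrast, and 0 of its tested target rows were called. Map3k14 held 1 to 9 fragments per library and Relb 0 to 2, so neither was tested. Nfkb2 had responses of 0.20 and -0.074, and the Psd row opposite it -0.024 and 0.31, with a difference of 0.34 (95% interval -0.10 to 0.78). NF-kB target genes had 8 tested rows opposite them, a median of 0.14 and 0 called. Leaving out 1 mouse at a time moved that median between 0.023, without Ctrl mouse 3, and 0.23, without Ctrl mouse 2. By row name the NF-kB target list went the other way, with 7 tested rows, 4 below 0, a median of -0.25 and 0 called. Art3, opposite the chemokine gene Cxcl10, gave within-mouse values of 0.24, -1.57, -1.52 and -0.87 in Ctrl and -0.30, 0.25, 0.50 and 0.019 in NT3, and Gm16175, opposite the NF-kB regulator gene Bcl3, gave -0.54, 0.78, -1.30 and 0.72 and 0.75, 0.90, 0.56 and 1.08. In both the mice overlapped (adjusted p = 0.667 and 0.747). Irf1, an interferon regulatory factor gene opposite Gm17334, gave within-mouse values of -0.58, -0.45, -0.58 and -0.61 in Ctrl and 0.95, -0.17, -0.44 and 0.44 in NT3, which did not overlap (difference 0.80, adjusted p = 0.659). A large genotype difference in both limbs could stand beside an uncalled difference in response: Tbc1d17, opposite Il4i1 and Akt1s1, was at 58.4 to 95.6 CPM in non-loaded Ctrl and 224 to 344 CPM in non-loaded NT3, and its responses differed by 0.12 (-0.32 to 0.57). Tbc1d17, and the 5730488B01Rik and Gm12462 rows above, were named after their values were seen.

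Markers of other cells also differed between the limbs. The mean log2 CPM over 25 rows named for, or opposite, erythroid, granulocyte and B lymphoid genes was 6.02 to 6.27 in non-loaded and 5.87 to 5.93 in loaded Ctrl tibiae, and 6.10 to 6.26 and 5.95 to 6.18 in NT3. The within-mouse differences were -0.40, -0.13, -0.33 and -0.28 in Ctrl and -0.14, 0.016, -0.040 and -0.17 in NT3, so the genotypes overlapped and 3 Ctrl mice were lower than any NT3 mouse. This mean joins rows that moved apart. In Ctrl the median summed level of granulocyte rows by name was 125 CPM in non-loaded and 176 CPM in loaded tibiae. For rows opposite granulocyte genes it was 5343 and 3663 CPM. Erythroid and B lymphoid rows split the same way in Ctrl. With the mean of the 25 rows in the fit the Abi3, Gm20444, 2810430I11Rik and Gm13372 rows stayed called. Gm26840, Nt5c3b, Ibsp, Chn1os3, Col1a2 and Prmt7 kept their direction without a call. Their differences were then -1.60, -0.74, -1.17, -0.93, -1.33 and -0.86. The covariate fell more in most Ctrl mice than in NT3 mice, so it overlaps with the contrast itself. Standard errors grew with it, for Ibsp from 0.22 to 0.36. A kept or lost call therefore cannot show what part marrow cells had, which was not tested.

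Skeletal muscle, which can remain on the bone surface, varied more. The mean over 23 muscle rows gave within-mouse differences of -0.24, 1.20, -0.12 and -0.50 in Ctrl and 0.35, -0.33, -0.88 and -1.13 in NT3. All 10 rows opposite muscle genes had a negative difference, with a median of -0.92, but none had an unadjusted p below 0.05 and their standard errors were large. The median was -0.32 without Ctrl mouse 2 and -0.40 without NT3 mouse 4. For example, Gm26604, opposite the calcium channel gene Ryr1, gave within-mouse values of 0.36, 1.79, -0.63 and 0.082 in Ctrl and 0.27, -0.50, -1.01 and -1.04 in NT3. With the muscle mean in the fit 5 rows were called, and these were Abi3, Gm20444, 2810430I11Rik, Gm26840 and Nt5c3b, all among the 10. The other 5 lost the call with differences that stayed negative, at -1.06 for Ibsp, -1.07 for Chn1os3, -0.94 for Col1a2, -0.84 for Gm13372 and -0.77 for Prmt7. Osteoclast rows were too low to describe: Acp5 held 0 to 6 fragments per library, Ctsk 0 to 18 and Tnfsf11, the osteoclast ligand gene, 0 to 1.

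**Figure D5:**
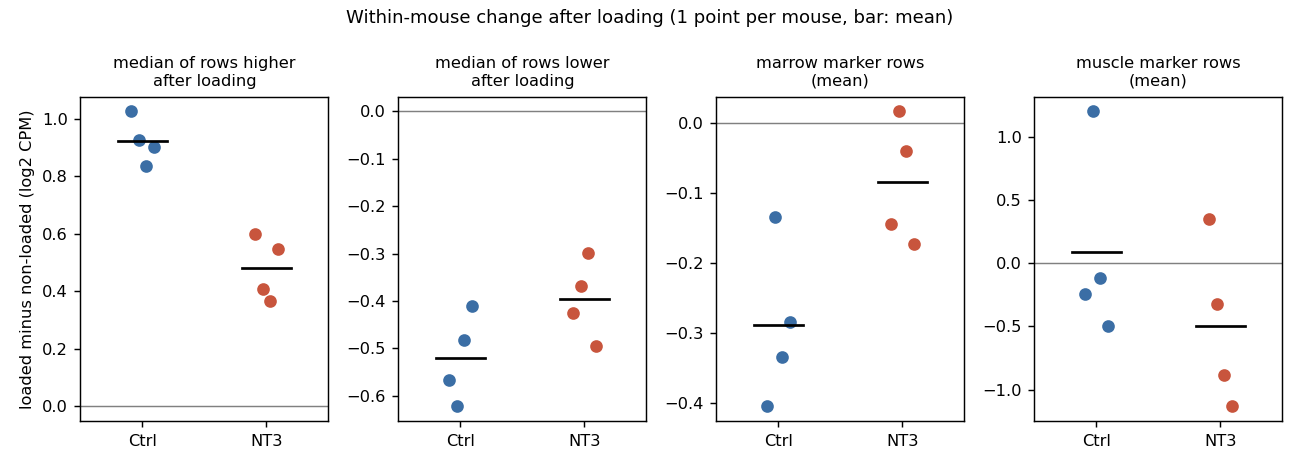
Each point is 1 mouse, and the vertical axis is its loaded minus non-loaded change (log2 CPM): the median over the 233 rows higher and the 83 rows lower after loading, and the mean over 25 marrow and 23 muscle marker rows. The first panel separates Ctrl from NT3, and the other 3 panels overlap.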

How the data were processed

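Cortical bone RNA of 16 tibiae was depleted of ribosomal RNA, primed at random and read single-end over 75 bases (mean RIN 5.4), per the labels. Per the submitters' processing notes, the authors used STAR 2.4.2a on mm10, then featureCounts 1.4.6 from Subread, and DESeq2. The deposited unit, per the labels and the whole numbers in the files, is gene counts. The sources used here do not give the annotation release or strand setting.

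Rows were placed on GRCm38 by symbol (45250) or older symbol (620), 1647 were unmatched, and a row was opposite a gene where exons overlapped by at least 20 bases. Counts were filtered with filterByExpr (minimum count 10), scaled by TMM and fitted in edgeR 4.0.16 (R 4.3.3) by robust quasi-likelihood with a block for mouse, testing all 16 libraries together. Adjusted p values are Benjamini-Hochberg over 7192 rows. Within-mouse values are log2 CPM with a prior count of 2. The design text pairs limbs by mouse, and their deviations from group means correlated at 0.045 to 0.178. No libraries were identical.

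Named rows were those called, the 5 smallest p upward, up to 4 called or otherwise 2 members of each of 27 lists, the 10 with the strongest average response, and fixed genes of the study's subject. These members and lists were chosen with earlier results of these data known. Alternatives used DESeq2 1.42.0, limma 3.58.1, other filters and scalings, marker covariates, no block and each mouse left out. Promoter windows are from RefSeq. Library totals of 758394 to 1064391 fragments leave low rows with wide intervals.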

Additional observations from a re-analysis of the deposited data

Results flagged for a closer look

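The 10 rows whose loading response differed between Ctrl and NT3 by a direct test of that difference are listed for a closer look. The differences (log2, NT3 minus Ctrl) were -1.06 for Abi3 (opposite Phospho1, Zfp652 and Gngt2), -1.61 for Gm20444 (opposite Mfrp and C1qtnf5), -1.10 for 2810430I11Rik and -1.07 for Gm13372 (both opposite Col5a1), and -1.63 for Gm26840 (opposite Vwa1). They were -0.92 for Nt5c3b (opposite Fkbp10), -1.10 for Ibsp, -1.11 for Chn1os3 (opposite Chn1), -1.13 for Col1a2 and -0.88 for Prmt7 (opposite Smpd3 and Gm26786).

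Single mice stood apart from the other 3 of their genotype in 6 of 138 groups of within-mouse changes checked, and chance gives about 1 in 20. The gap to the nearest of the other mice took more of the range than Dixon's limit for 4 samples. Among NT3 mice these were mouse 1 in the Gm37804 row opposite Tgfb3, at 0.48 where the others lay near 0, and mouse 4 in the Gm15419 row opposite the basement membrane collagen gene Col4a2, at 1.12, and in the Psd row opposite Nfkb2, at 0.67. Among Ctrl mice they were mouse 4 in the Cd72 row opposite Tesk1, at 0.88, and in the Gm44170 row opposite Sec61a1, at 1.41, and mouse 2 in the Rabep2 row opposite the muscle calcium pump gene Atp2a1, at 1.57. Without NT3 mouse 4 the Gm15419 row, chosen after its values were seen, differed by -1.23 with an edgeR adjusted p of 0.0169, where with all mice it was -0.93 with 0.219.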

How the results depend on the processing

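The 10 called rows kept their negative direction under all 20 alternatives to the fit. The Abi3, Gm20444 and 2810430I11Rik rows lost the call only without the mouse block, Gm13372, Gm26840 and Nt5c3b under 2 alternatives, Ibsp under 5, Chn1os3 under 8, Prmt7 under 12 and Col1a2 under 14. With no replicate block 0 rows were called for the difference in edgeR, with 335 at an unadjusted p below 0.05, and the Ctrl, NT3 and average responses gave 171, 5 and 205 called rows, where the paired fit gave 293, 30 and 316. The difference gave 17 rows with no filter on low counts, 5 with the muscle covariate, and 10 with the marrow covariate, of which 4 were shared. Of those 10, Gm10722 and Gm26870 were higher in NT3, at 2.69 and 4.88, and were named after their values were seen. DESeq2's Wald test gave 10 rows for the difference, 8 of them shared, limma-voom gave 9 and the non-robust fit 8, with 7 shared in each. The Copg2 row, not called in the main fit, was called in each of these, at -2.63, -2.57 and -2.53. The 8030451A03Rik row was called by DESeq2 and limma-voom, at -0.69 and -0.68. Copg2 was named after its values were seen. The Gm10800 covariate is the log2 CPM of a single row, which took 0.13% to 5.72% of the fragments of a library. Its within-mouse change ran from -0.83 in NT3 mouse 3 to 3.93 in Ctrl mouse 1. For the Ctrl response DESeq2 gave 169 rows, the marrow covariate 13 and the Gm10800 covariate 129. For NT3 DESeq2 gave 19, the non-robust fit 18 and the marrow covariate 15. For the average DESeq2 gave 197, the marrow covariate 20 and the Gm10800 covariate 129.

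The median difference over rows raised by loading, chosen anew in each setting, was -0.94 over 18 rows with the marrow covariate and -0.58 with the Gm10800 covariate. With a term for loading in mice of lower or higher animal number in the titles, added after seeing the data because these numbers divided the genotypes unevenly, it was -0.29. Under that term the Chn1os3, Col1a2 and Prmt7 rows lost the call (edgeR adjusted p 0.117, 0.196 and 0.217). Over rows lowered by loading the median was 2.84 over 2 rows with the marrow covariate, 0.066 with the muscle covariate and -0.15, a reversed sign, with the animal number term. The causes were not tested.

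Leaving out each mouse in turn gave 7 to 14 called rows for the difference, 163 to 325 for Ctrl, lowest without Ctrl mouse 2, 17 to 44 for NT3, lowest without NT3 mouse 1, and 222 to 334 for the average. Medians ran from -0.55 to -0.37 over raised rows and from -0.0013, without NT3 mouse 2, to 0.27 over lowered rows. They ran from -1.09 to -0.62 for fibrillar collagens, from -0.60 to -0.22 for osteocyte genes and from -0.61 to -0.32 for rows opposite TGF-beta and BMP genes. At this depth, rows under about 20 fragments had standard errors near 0.5 or more, so differences there were not detectable unless large.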
